A study of Rattus norvegicus with 9 samples.

Results

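The transcriptome of untreated H9c2(2-1) cells was described from 3 libraries, titled Control replicates 1 to 3, out of the 9 libraries of a study on structured water. These 3 were taken by their titles, with earlier results of these data known, and no treated library entered any value below. H9c2(2-1) is a clonal rat line started from the heart of a BD1X embryo and is labelled as a wild-type myoblast. The cells received no treatment and stayed in ordinary growth medium, DMEM with 10% fetal bovine serum and 1% antibiotics, at 37 °C and 5% CO2. The labels do not say whether the 3 libraries came from separate cultures, so the spread between them may be technical. Levels are in TPM, a relative abundance which scales reads for transcript length so that genes can be compared with each other, and are given as the mean ± SD of the 3 libraries with n = 3. A gene was counted as expressed when its summed transcripts reached 1 TPM in each library. With a single group, no test between groups was made.

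A myoblast is a dividing precursor that can leave the cell cycle, fuse and build the contractile sarcomere. In skeletal muscle this course is driven by the transcription factors Myf5, Myod1 and Myog, whereas heart muscle cells form without them under factors such as Nkx2-5, Gata4 and Tbx5. Smooth muscle cells and activated fibroblasts share a contractile actin programme that serum response factor and its partners of the myocardin family switch on, and fibroblasts add a collagen-rich matrix.

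The libraries held between 36193439 and 48574618 estimated reads. Of 36856 genes, 11607 were expressed (31.5%), and of 23107 protein-coding genes, 11088 were expressed (48%). Counts of genes differed between each pair of libraries by more than sampling noise (chi-square per gene 5.34 to 8.66), so no library was a second deposit of another, which leaves unknown whether they came from separate cultures. Control replicate 1 stood slightly apart from the others. The log2 ratio of replicate 1 to replicate 2 rose with transcript length over 9414 genes, with a Spearman correlation across genes of 0.40 (genes are not independent replicates). The same correlation was 0.25 for replicate 1 to replicate 3 and -0.16 for replicate 2 to replicate 3. Replicate 1 also had almost no reads of embryonic globins. The embryonic globin Hbe1 had 1, 122 and 65 reads in replicates 1, 2 and 3, Hbg1 had 0, 65.7 and 49, and Hbz had 0, 30 and 26. The summed level of the 10 globin genes in the table was 0.123, 36.9 and 18.3 TPM. In replicate 1, 215 genes had 0 reads while both other libraries had at least 3, compared with 110 genes for replicate 2 and 53 for replicate 3. Conversely, 106, 168 and 232 genes had at least 3 reads in replicate 1, 2 or 3 alone and 0 in both others. Both counts depend on depth, which was largest in replicate 3. The source of reads found in only some libraries was not tested, and the levels reported below that lie under 1 TPM include such genes.

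Transcripts of the cytoskeleton, the collagen matrix and the ribosome led the transcriptome. Tmsb4x, which encodes the actin-sequestering peptide thymosin beta 4, was the most abundant gene, at 16071, 17155 and 18966 TPM in the 3 libraries (17397 ± 1463). The next 5 genes, in order of their means, were Col1a2, Actb, Acta2, Col1a1 and Lgals1. Col1a2, a chain of type I collagen, stood at 11831, 10728 and 10695 TPM (11085 ± 646). Its partner chain Col1a1 stood at 9926, 8854 and 9071 TPM (9283 ± 567). For both chains replicate 1 was the highest library, while Tmsb4x was lowest there. Acta2, the alpha actin of smooth muscle, was at 10018, 9957 and 9806 TPM (9927 ± 109), close to the cytoplasmic beta actin Actb at 10841, 10870 and 9934 TPM (10548 ± 532). Actb was above Acta2 within each of the 3 libraries, although their ranges over the libraries overlapped. Lgals1, the secreted lectin galectin 1, was at 8732 ± 368 TPM.

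The other places among the 25 most abundant genes fell to a few functions. Rpl41, Rplp1 and Rps2 of the ribosome and the elongation factor Eef1a1 had means between 4750 and 7942 TPM. Tmsb10, a second thymosin, stood at 6857 ± 299 TPM, Ftl1, the light chain of the iron store ferritin, at 6810 ± 408 TPM, and the prolyl isomerase Ppia at 6337 ± 99.1 TPM. Of the calcium-binding S100 proteins, S100a6 was at 4802, 5256 and 6783 TPM, S100a4 at 3396, 3823 and 4291 TPM and S100a11 at 4712 ± 97.2 TPM. S100a6 and S100a4 were highest in replicate 3 and varied more between libraries than their neighbours. Contractile genes in this set were Myl6, a myosin light chain (6549 ± 223 TPM), Tagln, the actin-binding protein transgelin (6366 ± 136 TPM), Actg2, the gamma actin of smooth muscle (4895 ± 107 TPM), and Actg1, the cytoplasmic gamma actin (4006 ± 127 TPM). The secreted or matrix-related genes Sparc, Col3a1, Mfge8 and Serpinh1, the last a chaperone of collagen folding, had means between 3902 and 5447 TPM. Gapdh, a glycolytic enzyme, stood at 3922 ± 50.6 TPM.

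**Figure D1:**
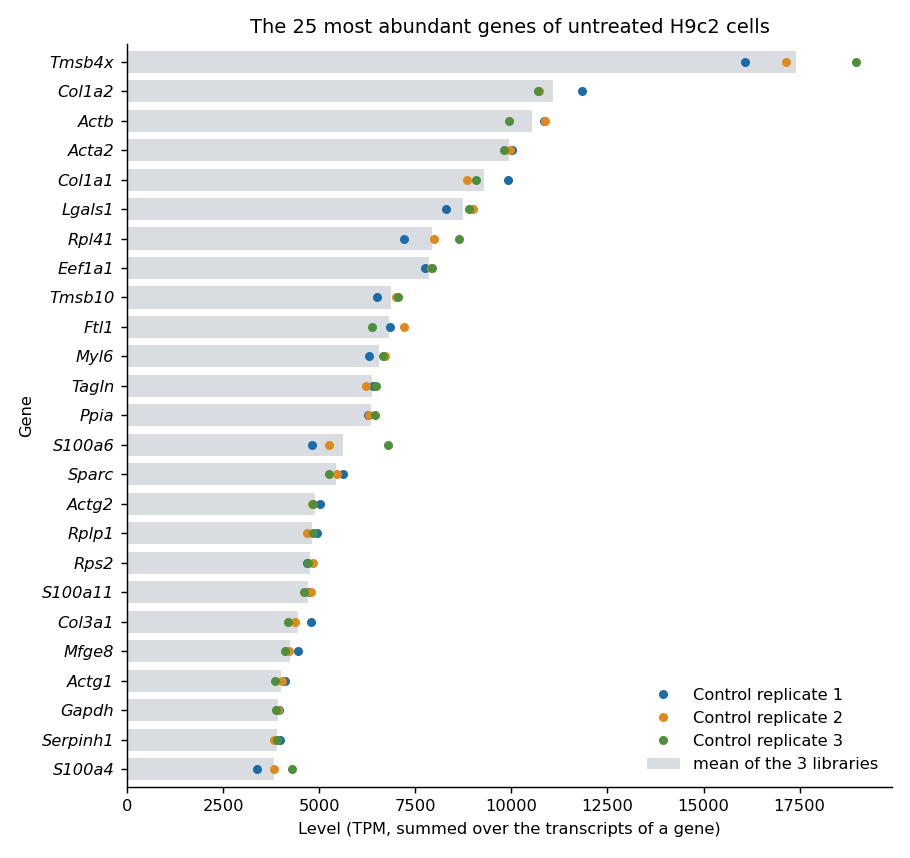
Levels of the 25 genes with the highest mean, in TPM on a linear axis from 0; bars are means of the 3 untreated libraries and points the single libraries. Tmsb4x leads at 17397 TPM, followed by Col1a2, Actb, Acta2 and Col1a1 between 9283 and 11085 TPM.

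The 10 most abundant genes held 9.53%, 9.66% and 9.78% of all TPM (9.66% ± 0.123), and the top 100 held 34.0% ± 0.450. At the top end, 154 protein-coding genes reached 1000 TPM and held 40.3% of all TPM, whereas the 3248 expressed between 1 and 10 TPM held 1.65%. The median of the expressed protein-coding genes was 20.6 TPM, with quartiles of 8.35 and 52.7 TPM. Over all protein-coding genes, expressed or not, the median was 0.734 TPM. Genes of cytosolic ribosomal proteins took 15.4% ± 0.541 of TPM and 48 of the 100 highest places. Many of these genes have near-identical copies, between which reads can only be divided by estimate. Subunits of the respiratory chain encoded in the nucleus held 3.06% ± 0.0658, translation factors 2.17% ± 0.0118, and the tubulins 0.828% ± 0.0132.

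Most of the genes chosen for the extracellular matrix list were expressed. Of 45 listed matrix genes and matrix enzymes, 41 were expressed (91.1%, beside 48% of all protein-coding genes), with a list median of 292 TPM. Together the 45 held 5.44% ± 0.280 of TPM. The 44 collagen chains held 2.81% ± 0.173, and 20 of them were expressed (45.5%), a share near the 48% of all protein-coding genes. Without scaling for length they held 9.05% of reads. After Col1a2, Col1a1 and Col3a1 came the type V chains Col5a2 (1190 ± 88.4 TPM) and Col5a1 (746 ± 60.7 TPM), which set the width of collagen fibrils. Ccn2, a secreted target of mechanical and TGF-beta signals, stood at 3271, 2851 and 2984 TPM, Bgn, the small proteoglycan biglycan, at 2987 ± 199 TPM, and Fn1, fibronectin, at 2436 ± 198 TPM. In contrast, the type VI chains were low. Col6a3 was at 6.94 ± 0.477 TPM, and Col6a2 and Col6a1 at 0.860 and 0.228 TPM were not counted as expressed. Mmp2, a gelatinase, and Fbn2, a microfibril protein, were the other listed genes not expressed, at means of 1.12 and 0.0428 TPM.

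All 23 listed smooth muscle genes were expressed, beside 48% of all protein-coding genes, with a list median of 168 TPM and 4.0% ± 0.0275 of all TPM. Activated fibroblasts share this contractile programme, so these values do not mark smooth muscle alone. Acta2, Myl6, Tagln and Actg2 were followed by the tropomyosins Tpm2 (2432, 2503 and 2421 TPM) and Tpm1 (2286, 2201 and 2149 TPM), which lie along actin filaments. The late marker Myh11, the myosin heavy chain of smooth muscle, reached only 7.64, 7.06 and 7.42 TPM (7.37 ± 0.294). Myocd, the coactivator myocardin, stood beside it at 7.17 ± 0.365 TPM, below its relatives Mrtfa (53.4 ± 1.66 TPM) and Mrtfb (14.5 ± 1.23 TPM). Srf, the serum response factor they bind, was at 50.2 ± 0.758 TPM. Des, the intermediate filament desmin that muscle cells share, was at 5.28, 4.10 and 4.26 TPM and was the lowest of the 23.

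The list of fibroblast and mesenchymal identity had 21 of 29 genes expressed (72.4%, beside 48% of all protein-coding genes) and a median of 21.0 TPM. S100a4 and Vim, the intermediate filament vimentin (2873 ± 131 TPM), led it, ahead of the surface glycoprotein Thy1 (364 ± 11.9 TPM) and the receptor Pdgfrb (222, 200 and 207 TPM). The homeobox factors Prrx2 (202 ± 12.9 TPM) and Prrx1 (165 ± 7.66 TPM), which mark limb and head mesenchyme, were the 2 highest transcription factors ranked. The ranking covered the cardiac, myogenic and Hox lists and a chosen set of other factors, not every factor of the lists. Within it, Snai2 (111 ± 6.53 TPM), the cofactor Vgll3 (76.9 ± 6.03 TPM) and Tead1 (62.8 ± 3.55 TPM) followed. Other listed genes, some of them markers of fibroblasts, were not expressed. Pdgfra, the receptor found on most cardiac fibroblasts, stood at 0.0533, 0.129 and 0.0700 TPM, the N-cadherin gene Cdh2 at 0.0738 TPM, and Tcf21, a factor of epicardium-derived fibroblasts, at 0.0153 TPM. Fap, a protease of activated fibroblasts, had 0 reads in all 3 libraries, which allows a level of up to 0.0581 TPM (3 reads in the shallowest case, counting error only).

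The markers chosen here for a skeletal myoblast were expressed only in part. Of 7 defining markers, Cdh15, Myod1 and Myog were expressed and Pax7, Pax3, Myf5 and Chrna1 were not, and their summed level ran from 30.2 to 33.9 TPM. Myod1, the factor that commits cells to skeletal muscle, was at 9.17, 8.51 and 8.24 TPM from 297 to 386 reads. Myog, which drives the step into differentiation, was at 2.97, 4.49 and 3.34 TPM from 91.2 to 132 reads. Myod1 lay near and Myog below the lower quartile of expressed protein-coding genes (8.35 TPM). In bulk RNA a gene at such a level in every cell and a gene confined to few cells cannot be told apart. Pax7 and Pax3, factors of muscle stem cells and of early muscle precursors, were at 0.0361 and 0.0181 TPM, and Myf5 and Myf6 had 0 reads (up to 0.0741 and 0.131 TPM). Of 21 listed regulators 11 were expressed, a share near the 48% of all protein-coding genes, led by Vgll3, Mef2d (38.6 ± 2.87 TPM), Eya1 (32.6 ± 0.733 TPM) and Mef2a (31.2 ± 1.58 TPM). Genes of the myoblast surface were better represented, with 16 of 23 expressed (69.6%, beside the same 48%). Ncam1, an adhesion molecule (124 ± 8.11 TPM), Itga7, the laminin-binding integrin chain of muscle (72.0 ± 3.41 TPM), Jph2, a junctional membrane protein (69.4 ± 4.99 TPM), and Rapsn, which clusters acetylcholine receptors (58.5 ± 3.01 TPM), led. The fusion genes Mymk and Mymx, at 0.538 and 0.236 TPM, were not counted as expressed.

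Of 40 genes for the skeletal sarcomere and its energy supply, 12 were expressed (30%, beside 48% of all protein-coding genes). The list median was 0.210 TPM, below the median of all protein-coding genes. Tnnc1, the troponin C of slow muscle and heart, stood far above the others at 219, 210 and 247 TPM. Tnnc2, its fast counterpart, was at 36.5 ± 0.687 TPM, the alpha actin Acta1 at 29.8 ± 1.48 TPM, and the muscle enolase Eno3 at 21.5 ± 0.987 TPM. Myh1, a fast myosin heavy chain, was at 10.4, 9.56 and 9.46 TPM (9.79 ± 0.491). Of the sarcomeric myosin heavy chains listed it alone was expressed, and the related Myh2, Myh3, Myh4 and Myh8 were between 0.00508 and 0.224 TPM. These genes are near copies, so part of a level may be assigned from another member. The giant proteins were nearly silent, with titin (Ttn) at 0.00694 TPM and nebulin (Neb) at 0.259 TPM.

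Genes of the cardiac programme were expressed in part. Among 24 cardiac transcription factors 12 were expressed, near the 48% of all protein-coding genes, and the highest were Tead1, Hand2 (54.9, 54.3 and 54.2 TPM) and Meis1 (43.5 ± 0.663 TPM). Shox2 (11.0 ± 1.61 TPM) and Zfpm2 (10.6 ± 0.795 TPM) came next. Hand2 is a basic helix-loop-helix factor of the right ventricle, limb and sympathetic lineages. Gata6 was at 9.99 ± 0.689 TPM and Gata4 at 3.32, 2.90 and 3.14 TPM. Tbx5 and Nkx2-5, which act with Gata4 in heart muscle cells, stood at 0.0586 and 0.0180 TPM, and Irx4 of the ventricle had 0 reads (up to 0.0577 TPM). Of 9 defining cardiomyocyte markers, Gata4, Tnnt2 and Tnni3 were expressed. Tnnt2, cardiac troponin T, was at 63.2, 58.9 and 61.1 TPM, while Tnni3, cardiac troponin I, reached 1.62, 1.89 and 2.35 TPM from 24.4 to 47.2 reads. The heart myosins Myh6 and Myh7 were at 0.0110 and 0.104 TPM, and the natriuretic peptide genes Nppa and Nppb at 0.104 and 0.0758 TPM. In the wider list of 32 contractile and secreted genes 11 were expressed (34.4%, beside the same 48%). Its highest members were Myl12a, a widely expressed myosin light chain (2061 ± 41.5 TPM), Ankrd1, a stretch-responsive repressor (908 ± 22.1 TPM), the small heat shock protein Cryab (328 ± 14.7 TPM), the fatty acid carrier Fabp3 (140 ± 5.23 TPM) and Cox6a2 (83.8 ± 3.49 TPM).

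**Figure D2:**
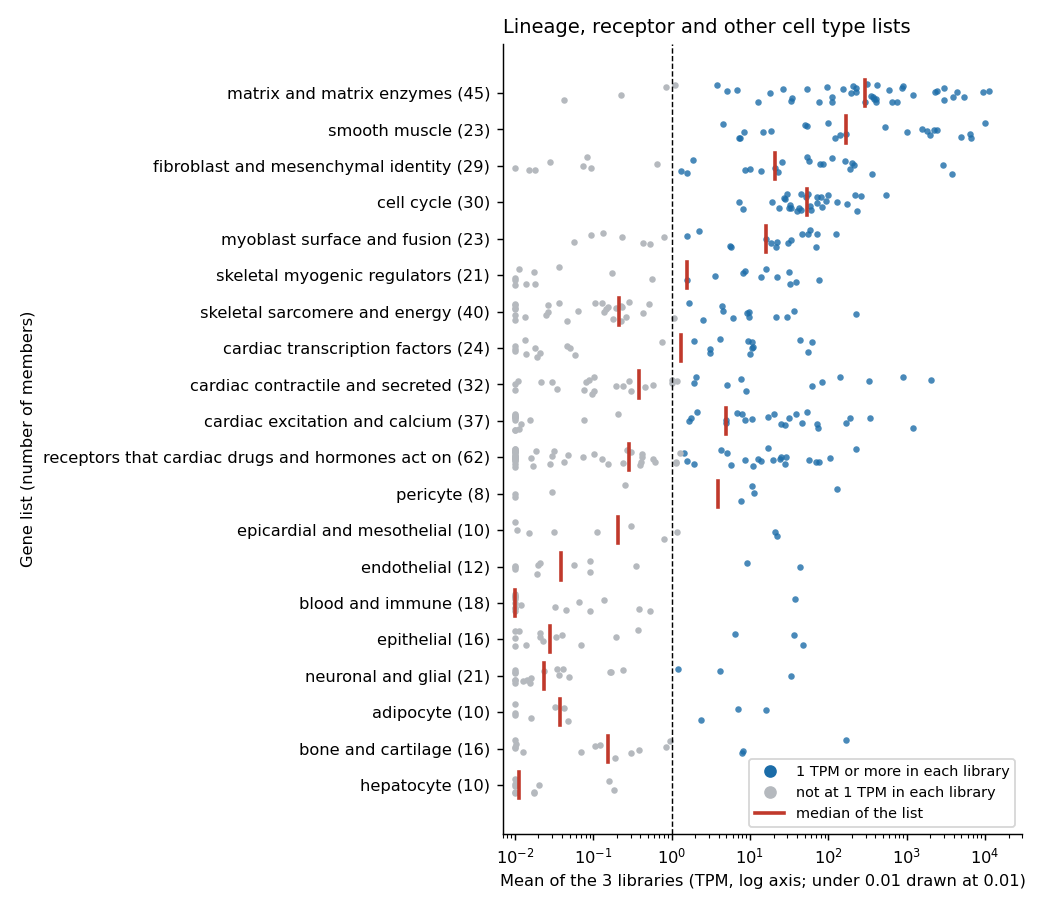
Mean levels of the members of 20 gene lists, in TPM on a log axis, with the number of members in brackets; blue points reached 1 TPM in each untreated library, grey points did not, and red bars are list medians. Matrix and smooth muscle members sit mostly above 100 TPM (medians 292 and 168 TPM), while the medians of the sarcomere and cardiac contractile lists lie below the dashed 1 TPM line.

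Within families of related genes the striated muscle member was usually the minor one. In 14 families that hold both a striated and a general member, the striated share of the family's TPM had a median of 3.70%, and it was under 1% in 6 families. With curated transcripts only the median was 1.30%. Among the 6 actins, Actb held 35.9%, Acta2 33.8%, Actg2 16.7% and Actg1 13.6% of the summed 29407 TPM. Acta1 and Actc1, the skeletal and cardiac actins, held 0.103% ± 0.00392 together, and Actc1 alone was at 0.0791, 0.541 and 0.250 TPM. The coding parts of actins are closely alike, so reads that fit several of them were divided by estimate. Among class II myosin heavy chains, which form bipolar filaments, the non-muscle gene Myh9 held 91.7% and Myh10 6.76%. Myh11 held 0.663%, and Myh14 was at 0.0180 TPM. The Z-disc forms Actn2 and Actn3 held 0.0176% of the alpha-actinins, against 50.7% for Actn1 and 49.3% for Actn4.

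Promoter sequences were looked up for the actins because their levels ran from 10548 TPM for Actb down to 0.290 TPM for Actc1. RefSeq windows on GRCr8, from 250 bases before to 50 bases after the annotated gene start, were at hand for 5 of the 6 actins, and Actb is named only. The window was searched for the CArG box, the motif bound by serum response factor, in its strict form (6 A or T bases between CC and GG). This motif reads the same on both strands. It was found in Actg1, Acta1 and Actc1 and is printed in capitals below, 5′ to 3′ on the gene's own strand. All 3 genes lie on the minus strand, at chr10:106120902-106121201 for Actg1, chr19:68784145-68784444 for Acta1 and chr3:121271778-121272077 for Actc1.
Actg1: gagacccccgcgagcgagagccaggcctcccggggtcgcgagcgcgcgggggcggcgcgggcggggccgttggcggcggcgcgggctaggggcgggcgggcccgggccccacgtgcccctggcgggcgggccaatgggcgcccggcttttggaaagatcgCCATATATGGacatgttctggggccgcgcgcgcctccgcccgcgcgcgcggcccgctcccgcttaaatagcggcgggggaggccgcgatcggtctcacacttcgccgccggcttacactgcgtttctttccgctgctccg
Acta1: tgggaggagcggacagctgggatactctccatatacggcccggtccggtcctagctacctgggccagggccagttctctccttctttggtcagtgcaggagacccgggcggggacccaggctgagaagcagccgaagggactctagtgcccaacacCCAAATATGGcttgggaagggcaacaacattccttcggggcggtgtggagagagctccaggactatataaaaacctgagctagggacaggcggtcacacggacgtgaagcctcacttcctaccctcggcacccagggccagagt
Actc1: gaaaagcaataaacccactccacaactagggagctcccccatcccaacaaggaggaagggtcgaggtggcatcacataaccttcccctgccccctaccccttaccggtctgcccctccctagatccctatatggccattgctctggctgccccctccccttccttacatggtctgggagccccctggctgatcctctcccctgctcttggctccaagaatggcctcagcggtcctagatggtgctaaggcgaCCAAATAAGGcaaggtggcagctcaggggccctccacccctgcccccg
The box begins 90 bases before the annotated start in Actg1 and 94 bases before it in Acta1, and 2 bases after it in Actc1. The mean levels of the 3 genes were 4006, 29.8 and 0.290 TPM. The windows of Acta2 and Actg2, at 9927 and 4895 TPM, held no match in this strict form, which says nothing about boxes elsewhere in these genes or about starts other than the annotated one. A box was present in 400 of 24206 windows of all genes (1.65%), in 1.27% of 8646 windows of expressed protein-coding genes and in 1.89% of 8856 windows of those not expressed. The TATA motif TATAAA, searched on the gene's strand with its first base 40 to 15 bases before the start, was in 0.937% of the expressed and in 3.16% of the other protein-coding windows. Of the 100 most abundant protein-coding genes with a window, 7 held it. Of the 3 printed windows that of Acta1 holds it, starting 29 bases before the start.

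In 3 of the 14 families, SERCA, the adenine nucleotide translocator and creatine kinase, the striated members held over 50%. The cardiac and slow muscle calcium pump Atp2a2, which also serves the endoplasmic reticulum of other cells, held 98.9% of the SERCA family at 182, 159 and 162 TPM, with Atp2a1 at 0.430 TPM and Atp2a3 at 1.40 TPM. Atp2a2 was typed as striated for the whole gene, so the SERCA share does not separate muscle from general use. Its transcript NM_001110823.2 of 4471 bases held 84.0% ± 1.49 of the gene, and its transcripts were not assigned to tissues. Slc25a4, the heart and muscle form of the mitochondrial adenine nucleotide exchanger, held 66.2% ± 0.822 and Slc25a5 33.8%. In the next families the striated member was a minor one with a larger share than in the actins. Slc2a4, the insulin-responsive glucose transporter of muscle and fat, was at 20.4, 19.4 and 21.0 TPM beside Slc2a1 at 21.4 ± 0.736 TPM and Slc2a3 at 33.6 ± 1.94 TPM, and the ranges of Slc2a4 and Slc2a1 overlapped. The striated filamin Flnc held 10.4%, against 87% for Flna. Cox6a2 held 5.33% against 94.7% for Cox6a1.
In other families the levels of the muscle members varied. All 4 creatine kinases, which buffer ATP in muscle and brain, stayed under 1 TPM, namely Ckb (0.156 TPM), Ckm (0.0458 TPM), Ckmt1 (0.0575 TPM) and Ckmt2 (0.455 TPM), and the whole family summed to 0.714 TPM. Pgam2 held 0.509% of phosphoglycerate mutase. For the entry of long-chain fatty acids into mitochondria, the brain form Cpt1c was highest at 15.6, 16.2 and 14.1 TPM. The liver form Cpt1a followed at 3.95 ± 0.251 TPM and the muscle form Cpt1b at 1.94 ± 0.515 TPM, and the 3 ranges did not overlap. The cardiac form Tnnt2 held 90.9% of the troponin T family, ahead of Tnnt3 (6.64%) and Tnnt1 (2.48%).

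**Figure D3:**
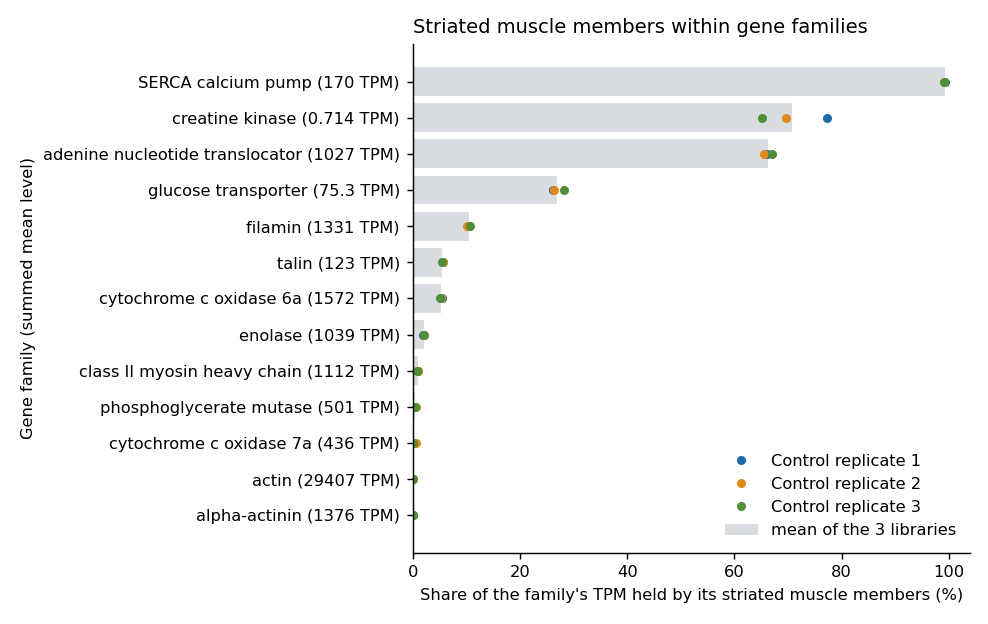
Share of each family's TPM (%, linear axis from 0) held by its striated muscle members in 13 of the 14 families, with the family's summed mean level in brackets; bars are means and points the 3 untreated libraries. Only SERCA, creatine kinase and the adenine nucleotide translocator exceed 50%, and creatine kinase does so at a total of 0.714 TPM. SERCA does so through Atp2a2, which also serves other cells.

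Genes for excitation and calcium handling were present without the release channels of muscle. Of 37 listed genes 23 were expressed (62.2%, beside 48% of all protein-coding genes). The calcium-binding chaperone Calr (1217 ± 21.1 TPM) and Casq2, the calsequestrin of the heart (342, 340 and 351 TPM), led. The gap junction gene Gja1 (201, 191 and 172 TPM), Atp2a2 and the kinase gene Camk2d (74.1 ± 1.64 TPM) followed. Ryr2, the release channel of the cardiac sarcoplasmic reticulum, had 0 reads in all libraries (up to 0.00826 TPM), and Ryr1 and Ryr3 were at 0.0247 and 0.0499 TPM. The inositol trisphosphate receptors Itpr1 (16.9 ± 0.653 TPM) and Itpr3 (7.93 ± 0.211 TPM) were expressed, and Itpr2 was at 0.0113 TPM. Cacna1c, the pore of the L-type calcium channel, stood at 10.7, 10.1 and 11.2 TPM. The inward rectifier Kcnj2 was at 0.00305 TPM.

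Of the receptors that cardiac drugs and hormones act on, a smaller share was expressed than of all protein-coding genes. Of 62 listed, 21 were expressed (33.9%, beside 48%), and the list median was 0.285 TPM. In all 3 libraries 14 of the 62 had 0 reads, while 26.6% of all protein-coding genes were at 0 TPM. The beta-1 adrenergic receptor Adrb1, the main target of beta blockers in the heart, had 0 reads (up to 0.0484 TPM). The alpha-1B receptor Adra1b was close to the threshold, at 1.34, 1.64 and 0.891 TPM. The angiotensin receptors Agtr1a and Agtr2 had 0 reads (up to 0.0687 and 0.0513 TPM) and Agtr1b was at 0.0479 TPM. Adra1a, a target of phenylephrine, had 0 reads as well (up to 0.0112 TPM). The highest members were the thrombin receptor F2r (246, 222 and 216 TPM), the vasopressin receptor Avpr1a (113, 105 and 99.3 TPM), the sphingosine phosphate receptor S1pr3 (75.3 ± 3.13 TPM), the retinoic acid receptor Rarg (69.3 ± 1.23 TPM) and Igf2r (57.0 ± 2.45 TPM). Below these, the glucocorticoid receptor Nr3c1 was at 29.1 ± 1.00 TPM, the endothelin receptor Ednra at 5.68 ± 0.457 TPM and the insulin receptor Insr at 5.13 ± 0.402 TPM. The progesterone receptor Pgr had 0 reads (up to 0.0399 TPM).

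Receptors for growth factors and cytokines were more widely expressed, at 31 of 40 (77.5%, beside 48% of all protein-coding genes). Their median was 8.22 TPM. Axl, a receptor tyrosine kinase for Gas6, led at 307, 275 and 284 TPM, followed by the Wnt receptors Fzd2 (191 ± 10.8 TPM) and Fzd7 (74.2 ± 6.28 TPM), the shared cytokine receptor chain Il6st (108 ± 3.16 TPM) and Tnfrsf1a (98.7 ± 4.25 TPM). The fibroblast growth factor receptor Fgfr1 was at 0.0564, 0.146 and 0.0683 TPM, whereas Fgfr2 reached 16.1 ± 1.15 TPM and Fgfr3 6.02 ± 0.487 TPM. The neuregulin receptors Erbb3 and Erbb4 were at 0.0899 and 0.0373 TPM beside Erbb2 at 8.87 ± 0.725 TPM. Of 48 secreted growth factors 33 were expressed (68.8%, beside the same 48%). Fstl1, a follistatin-like glycoprotein, was highest at 2011, 1806 and 1814 TPM, and Tgfb3 (414, 361 and 402 TPM), the chemokine Cxcl12 (272 ± 5.42 TPM) and Tgfb2 (256 ± 20.9 TPM) came after it. Igf1 was at 0.222 TPM while Igf2 was at 73.0 ± 6.85 TPM. The inflammatory cytokines Tnf and Il1b had 0 reads (up to 0.0930 and 0.126 TPM).

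Genes of the cell cycle and of glycolysis were broadly expressed, beside 48% of all protein-coding genes. All 30 cell cycle genes were expressed with a median of 53.2 TPM, led by Cdk4 (539 ± 7.63 TPM), Ccnd3 (259 ± 8.73 TPM), Pcna (231 ± 6.0 TPM), Ccnd1 (220 ± 14.8 TPM) and Cdk1 (173 ± 11.2 TPM). Of 12 cell cycle inhibitors and p53 genes 11 were expressed, with Cdkn1a at 141, 139 and 120 TPM and Cdkn1b at 124, 130 and 133 TPM. The exception was Cdkn1c at 0.0898 TPM. Of 18 glycolysis genes 17 were expressed with a median of 116 TPM, and after Gapdh came Aldoa (1148 ± 33.5 TPM), Eno1 (921 ± 23.5 TPM), Pkm (804 ± 22.3 TPM) and Ldha (773 ± 31.1 TPM). The list of mitochondrial biogenesis and fat oxidation had 22 of 29 genes expressed and a median of 14.1 TPM, led by Hadhb of beta-oxidation (193 ± 4.30 TPM). Ppargc1a, the coactivator that drives mitochondrial biogenesis in muscle, was at 0.00545 TPM, and Cd36, a fatty acid transporter of heart and fat, at 0.00877 TPM. The mitochondrial regulators Tfam (32.8 ± 1.29 TPM) and Nrf1 (16.5 ± 0.356 TPM) were expressed.

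Hox genes, which record position along the body axis, were expressed in 22 of 39 cases, beside 48% of all protein-coding genes. The counts by cluster differed. Hoxa had 10 of 11 genes expressed, Hoxb 7 of 10, Hoxd 4 of 9 and Hoxc 1 of 9. Hoxa10 was the highest at 64.1, 64.4 and 59.8 TPM, and the other Hoxa genes expressed lay between 2.72 and 9.62 TPM. In the Hoxd cluster Hoxd8 (43.4, 40.8 and 39.9 TPM), Hoxd9 (30.0 ± 1.84 TPM) and Hoxd13 (20.4 ± 1.03 TPM) stood out, while Hoxd11 was at 0.0181 TPM and Hoxd12 had 0 reads (up to 0.187 TPM). Hoxd13 was thus present with its neighbours Hoxd11 and Hoxd12 missing, and the same held for Hoxa13 (7.64 ± 0.220 TPM) beside Hoxa11 (0.106 TPM). In the Hoxc cluster Hoxc13 was the expressed gene, at 3.61, 2.89 and 3.21 TPM. Hoxc6 was near the threshold at 1.23, 1.65 and 0.943 TPM.

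**Figure D4:**
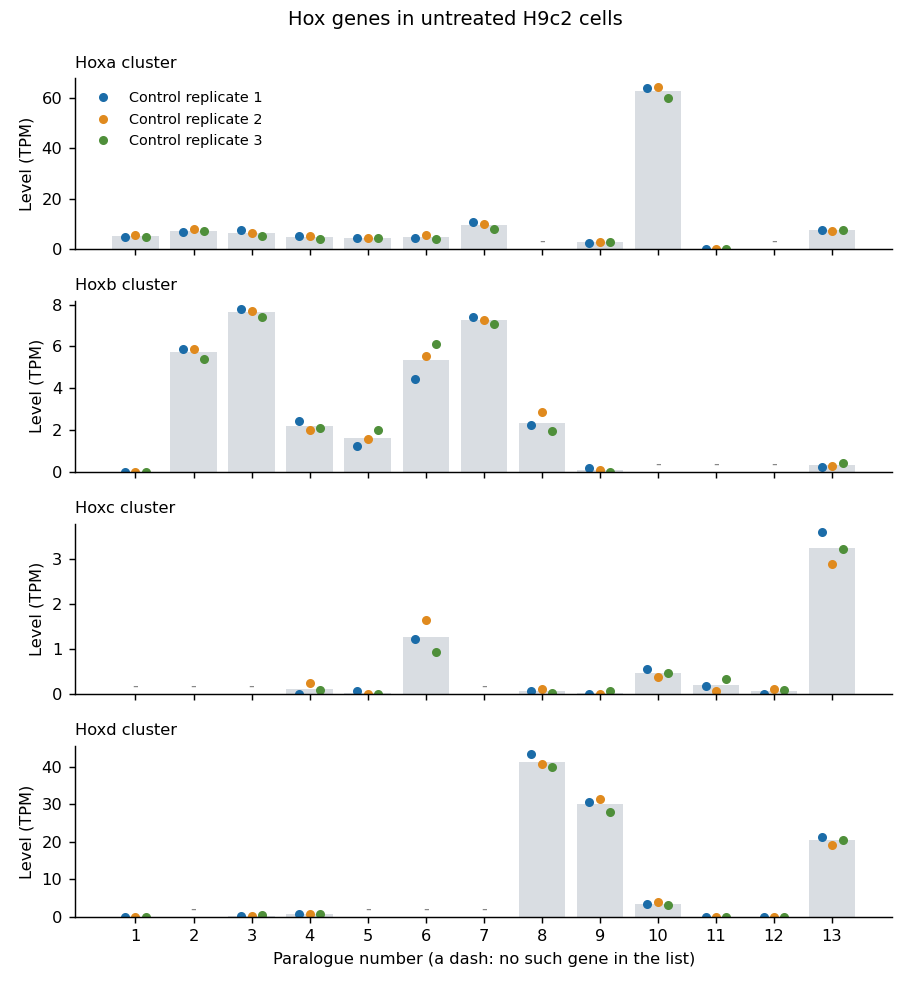
Levels of the Hox genes in TPM (linear axes from 0 with a different scale in each panel), by cluster and paralogue number; bars are means and points the 3 untreated libraries. Hoxa10, Hoxd8, Hoxd9 and Hoxd13 are the 4 genes above 20 TPM.

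Programmes of other cell types were mostly absent. In 11 lists (9 other cell types, pluripotency and germ line genes, and genes of the sex chromosomes) 22 of 136 members were expressed, a share of list members below the 48% of all protein-coding genes. The endothelial genes Pecam1 and Cldn5 had 0 reads (up to 0.0418 and 0.114 TPM), and Egfl7 (44.2 ± 1.26 TPM) and the decoy receptor Flt1 (9.06 ± 0.489 TPM) were the 2 of 12 expressed. Of 18 blood and immune genes only the transcription factor Runx1 (37.3 ± 3.18 TPM) was expressed, and the leukocyte marker Ptprc had 0 reads (up to 0.0294 TPM). Among 16 epithelial genes Krt8 (47.6 ± 4.24 TPM), Krt7 (36.1 ± 1.39 TPM) and the desmosomal gene Pkp2 (6.50 ± 0.0771 TPM) were expressed, and Cdh1 and Epcam were at 0.0333 and 0.0228 TPM. The neuronal and glial list included Nes (33.5 ± 2.46 TPM), an intermediate filament also found in myoblasts, and Tubb3 (4.14 ± 0.316 TPM), with 0 reads for Rbfox3 (up to 0.0531 TPM).
The pericyte list had 4 of 8 genes, Mcam (129 ± 5.65 TPM), Abcc9 (11.1 ± 0.729 TPM), Notch3 (10.6 ± 1.14 TPM) and Kcnj8 (7.59 ± 0.572 TPM), while Rgs5 had 0 reads (up to 0.439 TPM) and Cspg4 was at 0.00936 TPM. Abcc9 and Kcnj8 encode the 2 parts of the potassium channel of vascular smooth muscle that senses ATP. Of the epicardial and mesothelial list Msln (22.4 ± 0.384 TPM) and Tbx18 (21.0 ± 2.97 TPM) were expressed, and Wt1 was at 1.48, 1.05 and 0.967 TPM. Adipocyte genes expressed were Dgat2 (16.0 ± 1.01 TPM), Lpl (7.12 ± 0.956 TPM) and Cebpa (2.38 ± 0.232 TPM), with Adipoq and Fabp4 at 0 reads (up to 0.109 and 0.139 TPM). Of 16 bone and cartilage genes Spp1, the secreted phosphoprotein osteopontin (169 ± 7.50 TPM), Runx2 (8.25 ± 0.456 TPM) and Sox9 (8.0 ± 0.693 TPM) were expressed and Sp7 had 0 reads (up to 0.106 TPM). None of the 10 hepatocyte genes was expressed. Of the pluripotency and germ line genes Dppa4 was expressed at 37.0, 42.0 and 41.3 TPM, and Pou5f1 and Nanog had 0 reads (up to 0.120 and 0.0868 TPM).
At the scale of gene classes, 4 of 1457 olfactory and vomeronasal receptor genes were expressed and 1373 had 0 reads. None of 72 protein-coding genes on the Y chromosome was expressed, against 382 of 934 on the X chromosome. Xist, the RNA that silences an X chromosome in female cells, was at 0, 0.0176 and 0.00998 TPM.

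Most genes used 1 main transcript, but many did not. Among 7115 genes with at least 2 RefSeq transcripts and 5 TPM in each library, the leading transcript held a median of 76.0% of the gene's TPM (quartiles 56.3% and 92.1%). It held at least 90% in 2052 genes (28.8%) and under 50% in 1191 (16.7%). The same transcript led in all 3 libraries for 6321 genes (88.8%). The leading transcript was a computer-predicted model in 1952 genes (27.4%), and in 37 of 7070 protein-coding genes it was annotated as non-coding. The most abundant of these 37 was the ubiquitin ligase gene Rnf4, where XR_010057355.1 held 58.3% of 146 TPM. These shares are estimates of how reads common to several transcripts divide, and their precision between genes was not measured here.

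In a panel of 72 genes known for alternative transcripts, 63 had at least 2 transcripts and reached 1 TPM, and the leader held under 60% in 26 and at least 90% in 12. Fibronectin (Fn1), whose alternative exons change its binding properties, was the most abundant of these 26. Its leading transcript NM_019143.2 of 8331 bases held 43.8%, 44.6% and 44.5%, and the next, XM_006245157.5 of 7770 bases, held 16.5% ± 0.453. Fhl1, a LIM-domain protein of muscle, was led by NM_001033926.2 with 54.9%, 63.2% and 61.0%, lowest in replicate 1. Postn, the matrix protein periostin, divided into 55.7%, 25.6% and 18.2% for transcripts of 3217, 3255 and 3177 bases. The large proteoglycan versican (Vcan) was split between a transcript of 9470 bases with 59.0% ± 1.47 and its longest one of 12281 bases with 34.1% ± 1.70, and that of 4175 bases held 6.57% ± 1.65.
Tropomyosin genes make muscle and non-muscle forms by splicing. Tpm3 was divided between NM_173111.2 with 58.1% ± 1.26 and XM_063281200.1 with 38.3% ± 0.864. In Tpm1 by contrast NM_001034069.1 held 79.6% ± 0.284 of 28 transcripts, and in Tpm2 NM_001024345.2 held 93.5% ± 0.402. Ptbp1, a splicing repressor that is high in non-muscle cells, was at 277 ± 7.25 TPM and divided into NM_022516.5 with 52.5% ± 1.53 and NM_001271057.1 with 47.0% ± 1.63, closest to an even split in replicate 2 (50.8% and 48.8%). The pyruvate kinase gene Pkm, which has alternative exons in muscle and growing cells, was led by XM_063264963.1 of 2182 bases with 78.2% ± 0.264, and NM_053297.2 of 1971 bases held 19% ± 0.651.
The rest of the 12 most abundant split genes of the panel were the RNA-binding protein gene Hnrnpa2b1 (33.8% for its leader), the focal adhesion gene Zyx (48.4%), the Z-disc gene Pdlim5 (31.3%), elastin Eln (54.3%), the mitochondrial fission gene Mff (26.4%) and the angiogenic factor Vegfa (40.1%). Of 18 splicing regulators of muscle 13 were expressed (72.2%, beside 48% of all protein-coding genes). Hnrnpa1 (632 ± 12.7 TPM), Ptbp1, Qki (134 ± 8.61 TPM), Srsf1 (126 ± 1.84 TPM) and Mbnl1 (78.7 ± 3.99 TPM) led. The heart and muscle regulators Rbm20 and Rbfox1 were at 0.100 and 0.0988 TPM.

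**Figure D5:**
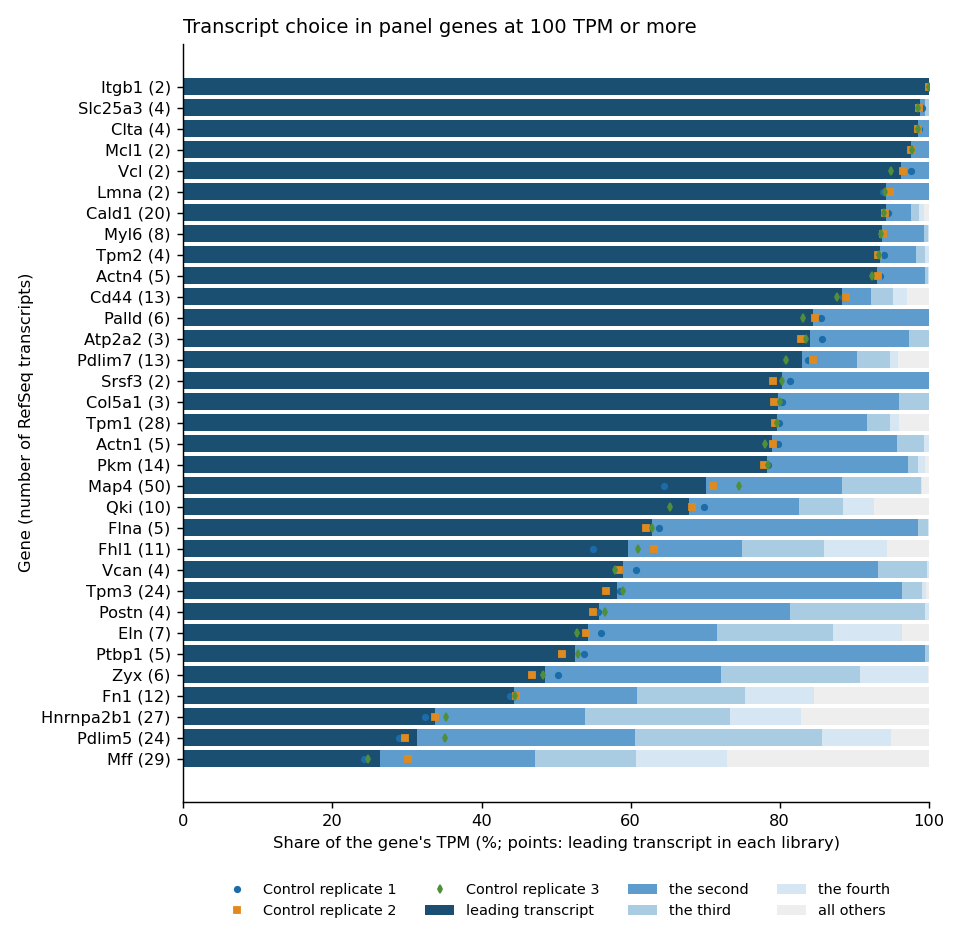
Division of each gene's TPM (%, linear axis) among its RefSeq transcripts for panel genes at 100 TPM or more; stacked bars are means over the untreated libraries and points give the leading transcript in each library. Leading shares run from 26.4% in Mff to nearly all in Itgb1, and Fn1 stands at 44.3%.

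The 3 libraries agreed closely for most genes. Over 9673 genes with a mean of at least 5 TPM the median coefficient of variation was 4.83%, and the median ratio of the highest to the lowest library was 1.1. A ratio of at least 2 was found in 84 genes (0.868%), of which 67 were small or ribosomal RNA genes and 14 were protein-coding. A small RNA gene spans few bases, so that few reads give a large TPM. On CPM, reads scaled for library total and not for length, 7 genes had a ratio of at least 2. The minimum was then a mean of 5 CPM, so a different set of genes entered and the 2 counts are not directly comparable. Besides Hbe1, the named genes with the widest range were mainly near copies of other genes. Rpl35al1 was at 423, 69.0 and 52.4 TPM and Rpl35al2 at 1.64, 5.87 and 13.4 TPM, so the first was highest and the second lowest in replicate 1. Snhg4, a host gene of small RNAs, was at 2.95, 12.6 and 15.3 TPM from only 4 to 24 reads. The others were H2bcl2, Zfp950l17, Snrpgl1, Rpl32l5, Dlg5l4 and the kinase gene Aurkc, with ratios between 2.25 and 2.95, and Aurkc was at 4.37, 9.82 and 9.63 TPM.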

How the data were processed

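Total RNA of the 3 untreated libraries was sequenced on a NovaSeq X Plus, per the labels' protocols, and quantified against transcripts with Salmon 1.10.3, per the submitters' processing notes. Per the file headers, the deposited tables give for each of 114122 RefSeq transcripts the TPM, the estimated count of reads, the length and the effective length. The authors' TPM is relative, so a library's values always add up to a fixed total, and the deposited estimated counts are fractional because shared reads are divided. Genome build, annotation release, strand handling and bias options are not given in the sources used here, and overlapping, antisense and near-identical genes may share reads.

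From these tables TPM and estimated counts were summed per gene, in Python 3.11.15 with pandas 2.3.3. All transcripts matched a RefSeq gene table of GRCr8 by identifier, giving 36856 genes, none of them on the mitochondrial chromosome. The depth, 36193439 to 48574618 estimated reads per library, sets how low a level can be seen. For a gene with 0 reads the level allowed is that of 3 reads in the library where this gives the highest TPM, for counting error only. No test was run, since 1 group of 3 libraries has no contrast. The summing, the range count and the transcript shares were run on simulated tables, with reads drawn for each transcript separately. No read was shared between transcripts there, so the division of shared reads was not tested. Promoter windows came from the RefSeq table of GRCr8 (24206 windows of genes with a unique symbol).

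The libraries, the 32 gene lists (700 genes in the table), the 27 families, the 72-gene transcript panel and the rules were chosen with earlier results of these data known. Genes named are the 25 most abundant and up to 5 leading members per list with defining members at 0. In lists of other cell types every member of at least 1 TPM is named. All members of described families are named, with up to 12 panel genes whose leading transcript held under 60%. So are up to 10 genes with the widest range between libraries, the 5 leading long non-coding RNAs and the 5 leading transcription factors or cofactors ranked. Other genes, such as Col6a1, Pdgfra and Hoxd13, were named after their values were seen. Some genes that these rules would name are not reported here. Alternatives were other minimum levels, reads in place of TPM, curated transcripts only and each library left out.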

Additional observations from a re-analysis of the deposited data

How the results depend on the processing

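No paired analysis was possible because only 1 group was described and no test was run. The count of expressed genes, 11607, became 17571 when 1 estimated read in each library sufficed. It stayed within 1.5 times under minimums of 0.5 and 2 TPM, CPM and curated transcripts only, and without each library it ran from 11679 to 11751. The 389 expressed list members ran from 347 to 525 over these settings (391 to 394 without each library). By list, 12 of 32 counts moved by more than 1.5 times where 1 read sufficed, and the single Hoxc gene became 0 with curated transcripts and 2 without replicate 3. Without scaling for length, the 10 leading genes held 13.3% of reads and collagen chains 9.05%, against 9.66% and 2.81% of TPM. With curated transcripts only these shares were 11.3% and 3.19%. The median striated share of families, 3.70%, was 3.66% by reads and 1.30% with curated transcripts. Leaving out each library gave 9.60% to 9.72%, 2.71% to 2.86% and 3.69% to 3.72%. The leading transcript's median share of 76.0% was 75.1% at a minimum of 1 TPM, 79.0% at 20 TPM and 85.9% with curated transcripts only, and 75.7% to 76.4% without each library. Genes with a 2-fold range, 84, numbered 360 at a minimum of 1 TPM, 14 at 20 TPM and 14 among protein-coding genes only. They numbered 7 by CPM, where the minimum was 5 CPM, and 48 to 57 without each library. Cutting the minimum or the transcripts changes which genes enter, and other causes were not tested. Levels of a few reads are limited by depth.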

Other observations

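The genes in this section were picked after their values were seen, and their levels are given as a description. Imprinted genes can be read from 1 parental copy, in some cases only in certain tissues or transcripts. Of 22 with values here, 13 were expressed, beside 48% of all protein-coding genes and 31.5% of all genes. Which parental copies were read was not measured. Gnas, a G protein subunit, stood at 1424 ± 57.7 TPM (SD, n = 3), and the growth-regulating RNA H19 at 422, 377 and 357 TPM. Igf2, the neighbour of H19, was at 80.9, 69.6 and 68.5 TPM, so both were highest in replicate 1. Sgce (68.5 ± 0.846 TPM), Peg3 (18.8 ± 0.332 TPM), Mest (15.4 ± 1.84 TPM) and Peg10 (14.7 ± 0.602 TPM) were also expressed. In contrast, Dlk1, Meg3, Nnat and Cdkn1c had 0 reads in replicate 1 and means between 0.0804 and 0.497 TPM. H19 was among the 5 most abundant long non-coding RNAs, with Gas5 (583 ± 15.5 TPM), LOC134486713 (287 ± 26.4 TPM), LOC102549726 (204 ± 7.0 TPM) and Bc1. Bc1, a short RNA, reached 908 ± 89.6 TPM from only 405, 407 and 493 reads.

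Keratins form filaments from 1 type I and 1 type II chain. The type II chains Krt8 (44.5, 52.4 and 45.7 TPM) and Krt7 (35.5, 35.1 and 37.7 TPM) were expressed, but none of the 12 type I keratins was. Krt18, the usual partner of Krt8, was at 0, 0.115 and 0.0970 TPM, and the highest type I keratin was Krt10 at 0.820 ± 0.0199 TPM.

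Among the fibroblast growth factor receptors and genes known as their partners or targets, 11 of 15 were expressed, beside 48% of all protein-coding genes. Of the receptors Fgfr2 was at 16.1, Fgfr3 at 6.02 and Fgfr1 at 0.0903 TPM. The adaptor Frs2 was at 34.4 ± 2.41 TPM, the feedback inhibitors Dusp6 and Spry2 at 27.0 ± 1.95 and 19.8 ± 1.19 TPM, and the factor Etv5 at 21.4 ± 1.08 TPM, whereas the co-receptors Kl and Klb were at 0.00775 and 0.00419 TPM.

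Besides the globins, reads of several genes of embryonic tissues were found in replicates 2 and 3 and not in replicate 1. Nnat had 0, 22 and 16 reads in replicates 1 to 3, Lin28a had 0, 14 and 18, and Fbn2 had 0, 20 and 10. The cortical factor Tbr1 had 0, 9 and 7. All stayed under 1 TPM in each library, and where these reads came from was not tested.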
